A study of Mus musculus with 9 samples.

Results

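Described here are the transcripts of 8 genes of the MYC, MAX and MXD network, namely Myc, Max, Mxd1, Mxd3, Mxd4, Mxi1, Mnt and Mlx, in activated mouse CD8 T cells. They were taken by gene symbol from a table of 16344 genes, and all 8 had a row with a value in every library. The cells were CD8 T cells of wild-type mice, taken from spleen and lymph nodes, activated through CD3 and CD28 and lysed at about 100000 cells a sample. Before lysis they spent the night in 20 mM NaCl, in 20 mM DAHB, or in DAHB together with 10 nM oligomycin, an inhibitor of mitochondrial ATP synthase (DAHB+O). Each of the 3 groups had 3 libraries with the same batch label. DAHB is given by its abbreviation alone, and for DAHB+O without a dose. Whether the 3 libraries of a group stem from different mice or cultures is not stated by the labels, and the p-values therefore rest on a spread between samples that may be technical. A group with oligomycin but no DAHB was not analysed here.

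MYC is a transcription factor of the basic helix-loop-helix leucine zipper family that binds DNA only as a pair with MAX, at E-boxes with the core CACGTG, where it raises transcription of genes for growth, ribosome production and metabolism. MXD1, MXD3, MXD4, MXI1 and MNT compete with MYC for MAX and bring the SIN3 and histone deacetylase corepressor to the same sites. MLX is a MAX-like protein that pairs with MNT, with some MXD proteins and with the glucose-responsive factors MondoA (Mlxip) and ChREBP (Mlxipl). In T cells MYC is induced by antigen receptor signals and is needed for the metabolic switch that precedes division.

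The E-box itself lies near the start of several network genes. Of the 7 members with a RefSeq promoter (GRCm38.p6, 250 bases before to 50 after the start), 4 had CACGTG, which reads the same on both strands, in at least 1 window. Over all 27025 genes with a promoter the share was 8.09%, and over the 13456 windows whose GC content lay in the range of the members (55% to 76.7%) it was 10.3% of windows. The matches of Mxd4, Mnt, Mlx and Max are shown with 24 bases on each side, 5′ to 3′ on the strand of the gene, because they carry the network's own binding sequence. Capitals mark the E-box.
Mxd4 (chr5:34187900-34187953, minus strand): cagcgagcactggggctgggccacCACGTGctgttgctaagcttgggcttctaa
Mnt (chr11:74830777-74830830, plus strand): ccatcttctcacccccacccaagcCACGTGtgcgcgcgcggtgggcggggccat
Mlx (chr11:101087226-101087279, plus strand): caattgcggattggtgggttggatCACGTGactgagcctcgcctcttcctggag
Max (chr12:76962222-76962275, minus strand): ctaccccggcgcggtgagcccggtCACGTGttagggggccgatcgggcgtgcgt
The first base of the box stood at -219 in Mxd4, -123 in Mnt, -40 in Mlx and -3 in Max, counted from the annotated start. No CACGTG stood in the windows of Mxd1, Mxd3 or Mxi1. Myc was the member without a promoter window, so its start was not searched. These are matches of letters, and binding was not measured.

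Values are normalized counts, that is reads of a gene divided by a size factor of the library, and they give the level of a transcript relative to the other genes of the library. Reads summed to 28146402 to 39207045 a library, and no member had fewer than 374 reads in any library. In bulk RNA fewer cells of a type and less RNA per cell cannot be told apart. Genes defining CD8 T cells were abundant throughout, with Cd8a at 16906, 22083 and 16415 on average in NaCl, DAHB and DAHB+O. The 8 CD8 T cell markers summed to 117162 to 125053, 139940.0 to 144460.0 and 96827 to 103777 in the same order, and all 8 were lower in DAHB+O than in DAHB. Markers are counted here as higher or lower at an adjusted p under 0.05 (limma). Of all genes tested, 35.5% were higher and 38.4% lower in DAHB than in NaCl. In DAHB+O against DAHB 33.1% were higher and 29.5% lower. Markers of other cells moved with the groups too. The 7 dendritic cell markers summed to 3062 to 3257, then 8376 to 9267, then 9400.1 to 9954. Of these 7, 6 were higher and 1 lower in DAHB than in NaCl, and 1 (Cd74) was higher and 4 lower in DAHB+O than in DAHB. The 5 measured of 6 B cell markers summed to 7580 to 8108, then 2679 to 2884, then 1999.5 to 2177, most of it from Ighm (7254 in NaCl). The 5 monocyte and macrophage markers summed to 462 to 535, then 983 to 1183, then 776 to 880.1, mostly from Cd68 (321, 1037 and 602), while 3 of the 5 (Lyz2, Csf1r and Cd14) were lower in DAHB than in NaCl. Sums were smaller for CD4 T cells (162 to 208, 223 to 240.1, and 235 to 289.7), NK cells (67.1 to 77.6, 52.7 to 66.7, and 44.4 to 53) and the 2 measured of 4 neutrophil markers (4.14 to 17.7, 30.8 to 98, and 3.78 to 8.93). No marker with a row was at 0. Their part in the results below was not tested.

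Myc and Max transcripts were higher in both DAHB groups than in NaCl, while the MXD genes and Mnt parted ways in DAHB and were all lower in DAHB+O than in NaCl. At an adjusted p under 0.05 (limma, 14169 genes tested), DAHB differed from NaCl in 73.9% of genes, with 35.5% higher and 38.4% lower. Of the 8 members 3 were higher (Myc, Max and Mxd1), 3 lower (Mxd3, Mxd4 and Mnt) and 2 passed in neither direction (Mxi1 and Mlx), a share close to this background. In DAHB+O against DAHB, where 62.6% of genes passed, 33.1% higher and 29.5% lower, no member was higher and 4 were lower (Mxd1, Mxd4, Mxi1 and Mnt). In DAHB+O against NaCl, where 74.2% passed, 36.5% higher and 37.7% lower, Myc and Max were higher and the 5 genes for MXD proteins and MNT were lower. The groups did not overlap for 6, 4 and 8 members in these 3 comparisons, against 75.6%, 67.6% and 78.7% of all genes. Each comparison shares libraries with the other two. The median log2 fold change of the 8 members was -0.06, -0.20 and -0.66 (the first 0.07 under quantile normalization), beside -0.02, 0.02 and -0.01 over all genes tested.

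**Figure D1:**
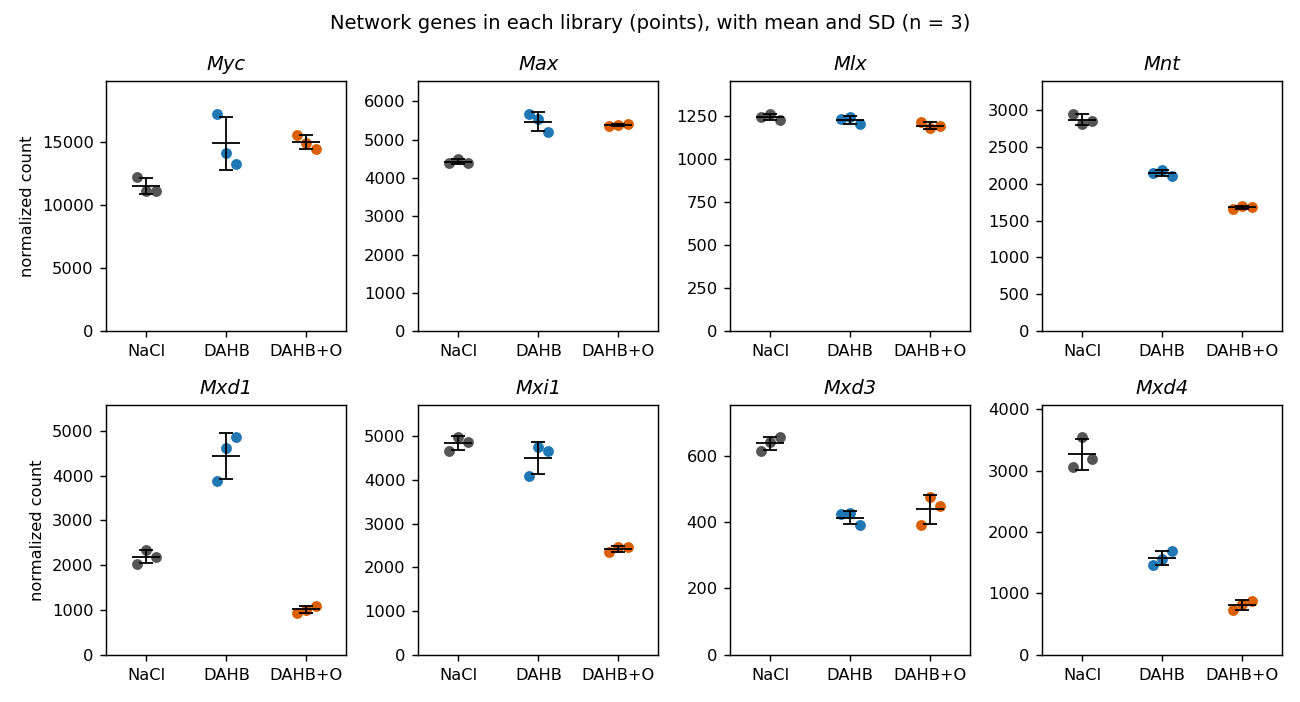
Normalized counts (vertical axes, each from 0) of the 8 network genes in NaCl, DAHB and DAHB+O, with 1 point per library and the mean and SD of 3 libraries. Mxd1 is highest in DAHB and lowest in DAHB+O, Mxd4 and Mnt step down from NaCl to DAHB to DAHB+O, and the Mlx points all lie between 1181 and 1266.

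Myc (chromosome 15, 61985391 to 61990374, plus strand, mm10) was the most abundant member. It stood at 12218, 11110.2 and 11103 in NaCl, 17208, 14124 and 13234 in DAHB and 15558, 14900.5 and 14403 in DAHB+O. Every library of both DAHB groups lay above every NaCl library, and the DAHB libraries spread widely enough to enclose all 3 DAHB+O values. Against NaCl the log2 fold change was 0.36 ± 0.0733 in DAHB (SE, limma adjusted p = 0.000355) and 0.38 ± 0.0733 in DAHB+O (SE, limma adjusted p = 0.000231), on the log2(value + 1) scale used throughout. DAHB+O against DAHB gave 0.02 with a 95% interval of -0.14 to 0.17 (limma adjusted p = 0.845). DAHB replicate 1 held the highest value, and without it the change in DAHB was 0.25 and that of DAHB+O against DAHB passed at 0.13 (limma adjusted p = 0.0311, 0.0311 to 0.984 over all alternatives).

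Max (chromosome 12, 76937269 to 76962201, minus strand), the partner that MYC and its competitors share, followed a similar course. Its values were 4385, 4491 and 4376 in NaCl, 5674, 5523 and 5184 in DAHB and 5342, 5378 and 5416 in DAHB+O. The NaCl libraries lay below all others, and the DAHB+O libraries lay inside the DAHB range. The log2 fold change was 0.30 ± 0.0384 in DAHB (SE, limma adjusted p = 3.45e-06) and 0.28 ± 0.0384 in DAHB+O against NaCl (SE, limma adjusted p = 7.19e-06), and -0.02 between the DAHB groups, with an interval of -0.10 to 0.06. Under quantile normalization the changes of DAHB+O against NaCl were 0.61 for Myc and 0.48 for Max, over 1.5 times larger.

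Mxd1 (chromosome 6, 86647042 to 86669161, minus strand) encodes the MAX partner that in many lineages rises as cells leave the cycle and differentiate. It was the member that DAHB raised most and the 1 that oligomycin lowered most. Its values were 2037, 2333 and 2192 in NaCl, 3869.8, 4619.9 and 4853 in DAHB and 929, 1013 and 1098 in DAHB+O. No group overlapped with another, and the order was DAHB, NaCl, DAHB+O from high to low. The log2 fold change was 1.02 ± 0.0788 in DAHB against NaCl (SE, limma adjusted p = 1.45e-08), -2.13 ± 0.0788 in DAHB+O against DAHB (SE, limma adjusted p = 1.39e-11) and -1.11 ± 0.0788 in DAHB+O against NaCl (SE, limma adjusted p = 5.36e-09). Among all tested genes 85.5% had a lower fold change than Mxd1 in DAHB against NaCl, and 1.16% had a lower one in DAHB+O against DAHB. The fall with oligomycin was 4.38-fold, and 1.41% of genes changed at least as much in either direction.

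Mxd4 and Mnt went down in both steps. Mxd4 (chromosome 5, 34173883 to 34187720, minus strand), another competitor of MYC for MAX, had 3057, 3539 and 3192 in NaCl, 1462, 1562 and 1695 in DAHB and 731, 826 and 882 in DAHB+O. Each group lay clear of the next. The log2 fold changes were -1.05 ± 0.0728 (SE, limma adjusted p = 4.2e-09) in DAHB and -0.95 ± 0.0728 (SE, limma adjusted p = 2.96e-08) on addition of oligomycin, together -2.005 in DAHB+O against NaCl, which 0.988% of tested genes undercut. Mnt (chromosome 11, 74830920 to 74845725, plus strand), a constitutive antagonist present in resting and dividing cells, had 2951, 2807 and 2845 in NaCl, 2149, 2185 and 2109 in DAHB and 1658, 1699 and 1681 in DAHB+O. Its steps were smaller and its libraries closer together, at -0.42 ± 0.0388 (SE, limma adjusted p = 1.2e-07) and -0.35 ± 0.0388 (SE, limma adjusted p = 1.35e-06). Over both steps the change of Mnt was -0.77 (limma adjusted p = 1.15e-10). Under quantile normalization the first step of Mnt was -0.25, still past the threshold. Over the 9 libraries the log2 values of Mxd4 and Mnt had a Pearson correlation of 0.987, a description of 3 groups of libraries.

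Mxi1 (chromosome 19, 53310518 to 53375810, plus strand) passed in both comparisons with oligomycin and, in the main fit without a block, not in DAHB against NaCl. This MAX partner, also a repressor of MYC-driven genes, had 4654, 4968 and 4867 in NaCl, 4087, 4747 and 4656 in DAHB and 2339.6, 2471 and 2460.1 in DAHB+O. NaCl and DAHB overlapped, and the DAHB+O libraries lay far below both. DAHB against NaCl gave -0.11 with an interval of -0.22 to 0.01 (limma adjusted p = 0.0809). That difference passed without DAHB replicate 2 (-0.15), without DAHB replicate 3 (-0.13), and with a block for replicate number (limma adjusted p = 0.0170). DAHB+O against DAHB gave -0.89 ± 0.0523 (SE, limma adjusted p = 1.79e-09), and DAHB+O against NaCl gave -0.99 ± 0.0523 (SE, limma adjusted p = 1.9e-10).

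Mxd3 (chromosome 13, 55325168 to 55329823, minus strand), which in the mouse is found in dividing progenitors in S phase, differed from NaCl in both DAHB groups. It was the weakest member in counts, at 615, 641 and 655 in NaCl, 424, 427 and 390.0 in DAHB and 389.8, 476 and 449.9 in DAHB+O. All NaCl libraries lay above the rest, and the DAHB groups overlapped. The log2 fold change was -0.62 ± 0.0765 in DAHB against NaCl (SE, limma adjusted p = 2.65e-06), -0.54 ± 0.0765 in DAHB+O against NaCl (SE, limma adjusted p = 1.13e-05), and 0.08 in DAHB+O against DAHB with an interval of -0.08 to 0.24 (limma adjusted p = 0.377). Cell division genes fell beside it in DAHB, all 16 listed (median -1.15), among them Cdc20, an activator of the anaphase-promoting complex (-2.03), the cyclins Ccna2 (-1.52) and Ccnb2 (-1.32) and the helicase subunit Mcm5 (-1.44). With oligomycin 15 of the 16 rose (median 0.38), including the helicase subunit Mcm2 (1.06), the thymidylate synthase gene Tyms (0.84), Mcm5 (0.70) and the topoisomerase gene Top2a (0.50). Against NaCl 13 of the 16 were still lower in DAHB+O and 0 higher (median -0.76). Of all genes, 38.4% were lower in DAHB, 33.1% higher on addition of oligomycin and 37.7% lower in DAHB+O against NaCl.

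Mlx (chromosome 11, 101087277 to 101092207, plus strand) varied least. Its values were 1248, 1266 and 1231 in NaCl, 1235, 1248 and 1205 in DAHB and 1217, 1181 and 1194 in DAHB+O, a narrow span in which only DAHB+O and NaCl did not overlap. The intervals of its log2 fold change were -0.11 to 0.07 in DAHB against NaCl, -0.13 to 0.05 in DAHB+O against DAHB and -0.15 to 0.03 in DAHB+O against NaCl. The sign of the first flipped under TMM rescaling (0.01) and quantile normalization (0.12), and under the latter it passed. Exons of the opposite-strand gene Psmc3ip cover 19.3% of the exon bases of Mlx, and whether counting used the strand is not given in the sources used here, so reads of these genes may be mixed. The same applies to 6.06% of the exon bases of Mxd4, 4.43% of Mxd3, 2.84% of Mxi1 and 4.24% of Mlxipl.

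**Figure D2:**
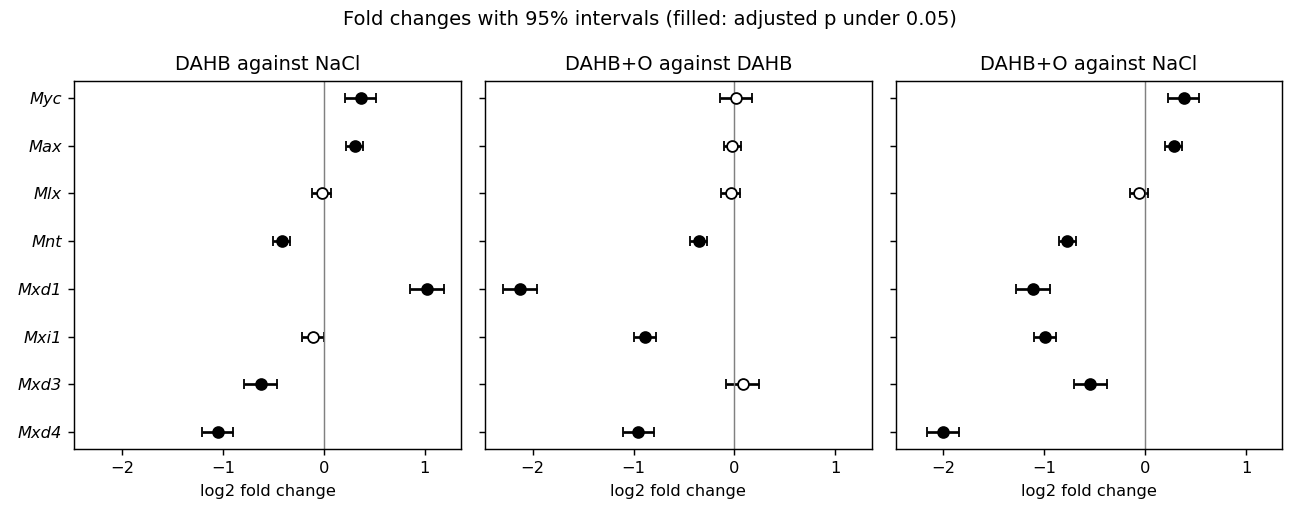
Log2 fold change (horizontal axis) of each network gene in the 3 comparisons, with 95% intervals from limma and filled points where the adjusted p was under 0.05. In DAHB+O against DAHB the 4 filled points are Mxd1, Mxi1, Mxd4 and Mnt, all below 0, while Myc, Max, Mlx and Mxd3 lie near 0.

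Levels of different genes were compared per kilobase of exon (GENCODE vM21, mm10). On this scale Myc led in every group, at 4224 ± 236 normalized counts per kilobase in NaCl, 5468 ± 768 in DAHB and 5504 ± 213 in DAHB+O, and Max was next at 1228 ± 17.8, 1518 ± 69.8 and 1495 ± 10.3 (SD, n = 3). In NaCl the order below them was Mxi1 (708 ± 23.5), Mlx (625 ± 8.72), Mnt (620 ± 16.1), Mxd4 (385 ± 29.3), Mxd1 (309 ± 20.9) and Mxd3 (269 ± 8.51), where Mlx and Mnt differed by less than their SD. This order rests on the length used, since per kilobase of the longest transcript Mxd4 stood at 705 in NaCl, above Mlx (635) and Mnt (625). In DAHB Mxd1 stood at 629 ± 72.7, within its SD of Mxi1 (659 ± 52.4) and Mlx (615 ± 10.9) (SD, n = 3), but with the longest transcript it was at 953 beside 893 for Mxi1 and 626 for Mlx. In DAHB+O Mxd4 was last at 95.9 ± 8.97 and Mxd1 next to last at 143 ± 12 (SD, n = 3).

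The 5 genes for MXD proteins and MNT together summed to between 2228 and 2352 normalized counts per kilobase in NaCl, between 1962 and 2189 in DAHB, and between 1083 and 1173 in DAHB+O. On this scale the DAHB libraries lay below the NaCl libraries by a small margin, and the DAHB+O libraries lay far below both. Without scaling by length the sums of NaCl (13314 to 14288) and DAHB (11992 to 13702) overlapped, and those of DAHB+O were 6048 to 6571. Inside that total Mxd1 took between 12.9% and 14% in NaCl, between 27.9% and 31.4% in DAHB, and between 12.1% and 13.2% in DAHB+O. Mxd4 took between 16.2% and 17.7% in NaCl, between 8.42% and 9.13% in DAHB, and between 7.96% and 8.86% in DAHB+O. The share of Mxi1 hardly moved, 30.5% to 31.8% over all 9 libraries.

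Set against this total, Myc stood at 1.74 to 2.02 times the sum in NaCl, 2.23 to 3.23 times in DAHB and 4.52 to 5.29 times in DAHB+O, with no overlap between groups. The means were 1.85 ± 0.15, 2.61 ± 0.54 and 4.83 ± 0.403 (SD, n = 3). Between DAHB and DAHB+O the mean of Myc per kilobase was nearly the same (5468 and 5504) while the mean sum went from 2112 to 1142. The ratio was given no test, since its parts were chosen with results known. It compares transcripts and says nothing of protein.

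**Figure D3:**
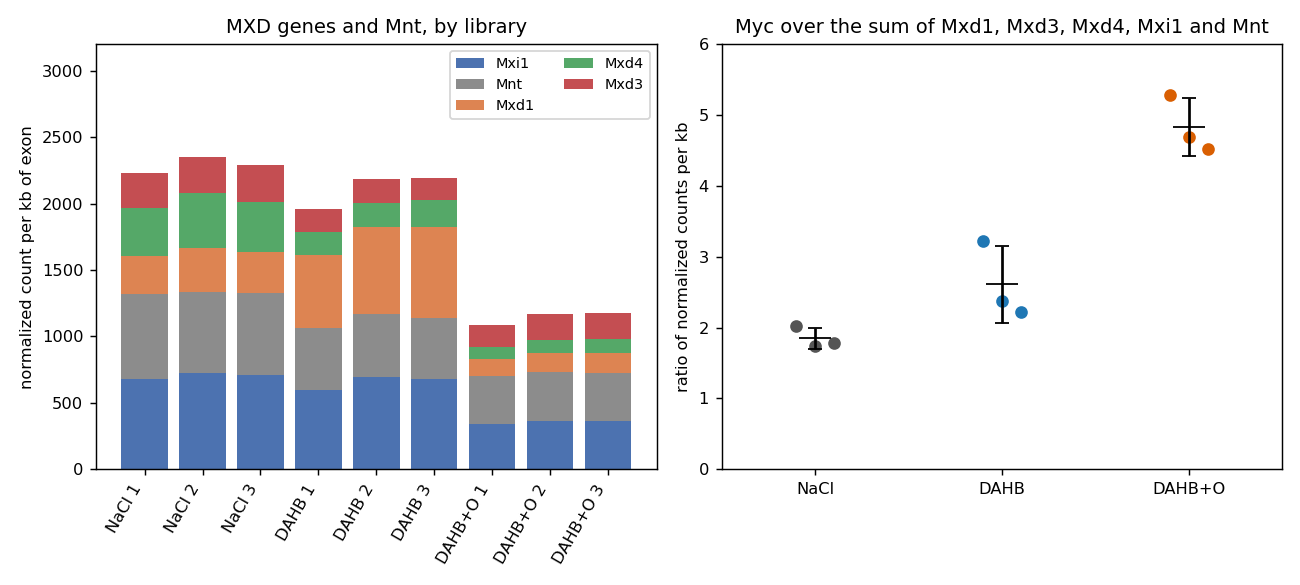
Left, normalized counts per kilobase of exon of Mxi1, Mnt, Mxd1, Mxd4 and Mxd3 stacked for each of the 9 libraries; right, Myc divided by that sum, with 1 point per library and the mean and SD of 3 libraries. The stack is 2228 to 2352 high in NaCl and 1083 to 1173 in DAHB+O, and the ratio averages 1.85, 2.61 and 4.83 in the 3 groups.

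Other network genes and a noncoding RNA gene beside Myc added 3 marked changes. Mlxipl, which encodes ChREBP, had 3.1, 5.9 and 5.44 normalized counts in NaCl, 85.6, 127 and 102 in DAHB and 94.4, 122 and 100 in DAHB+O. It was almost undetected in NaCl, at 3 reads in the lowest library, with a log2 fold change of 4.205 ± 0.231 in DAHB (SE, limma adjusted p = 3.31e-10). Its NaCl mean of 4.81 lay under the filter of 10. Mlxipl was tested only through the DAHB groups, so the filter favoured its call as higher. Mycl, a relative of Myc, had 60, 65.9 and 58 in NaCl, 115, 116 and 124 in DAHB and 234, 250.1 and 242 in DAHB+O. It rose at both steps, by 0.94 and 1.02 on the log2 scale (limma adjusted p = 1.12e-06 and 8.42e-07). Pvt1, a long noncoding RNA gene next to Myc (chromosome 15, 62037986 to 62378096, plus strand), had 273, 257 and 247 in NaCl, 779, 811 and 774 in DAHB and 759, 825 and 811 in DAHB+O. Like Myc it was higher in both DAHB groups, which overlapped, but its log2 fold change in DAHB was 1.603 ± 0.0622 (SE, limma adjusted p = 8.44e-12). Mycn stayed low, at 49.9, 54.8 and 63.1 on average, and passed in no comparison. Mga, a MAX partner of the noncanonical Polycomb complex, gave -0.17 in DAHB with overlapping groups (limma adjusted p = 0.0253), a call lost under TMM rescaling, and Mlxip, which encodes MondoA, gave -0.06 (limma adjusted p = 0.273).

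Txnip and Arrdc4, arrestin-like genes that MondoA with MLX induces, were higher in DAHB and lower with oligomycin. Txnip had 2812, 3289.5 and 3180.4 in NaCl, 4288, 4639 and 4810.4 in DAHB and 2782, 3517 and 3661 in DAHB+O, and Arrdc4 had means of 119, 199 and 120.3. Their log2 fold changes were 0.57 and 0.74 in DAHB (limma adjusted p = 2.17e-05 and 5.45e-05) and -0.47 and -0.72 in DAHB+O against DAHB (limma adjusted p = 0.000188 and 0.000102). In both genes DAHB+O overlapped with NaCl.

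Genes that MYC is known to activate were mostly lower in DAHB, where Myc was higher. The lists that follow are read against the shares of all genes given above, 35.5% higher and 38.4% lower in DAHB against NaCl and 33.1% higher and 29.5% lower in DAHB+O against DAHB. Of 40 listed genes 27 were lower, 5 higher and 8 passed in neither direction (median log2 fold change -0.33, beside -0.02 over all genes). Among the falls were Ubtf, a factor of RNA polymerase I (-1.24), the mitochondrial serine enzyme Shmt2 (-1.12), the transferrin receptor Tfrc (-1.09), the snoRNP protein Dkc1 (-1.003) and the nucleolar gene Nop56 (-0.84). The rises included the hexokinase Hk2 (1.27) and cyclin D2, Ccnd2 (1.103). With oligomycin 29 of the 40 were higher than in DAHB and 8 lower (median 0.44, beside 0.02), although Myc itself did not pass. Mthfd2 (1.52), Slc7a5 (1.498, fitted with 2 NaCl libraries since 1 cell is blank) and Shmt2 (1.39), which are also known targets of the stress factor ATF4, rose most, followed by Nop56 (1.03). The glycolytic genes Hk2 (-1.16), Slc2a1 (-1.24) and Ldha (-0.78) fell. Against NaCl, 17 of the 40 were higher and 10 lower in DAHB+O (median 0.10, beside -0.01 over all genes). Of all genes, 36.5% were higher and 37.7% lower in that comparison. Under quantile normalization 26 of the 40 were higher and 8 lower.

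Genes known to be repressed by MYC were few and mixed. Of the 8 measured, 4 were higher and 3 lower in DAHB (median 0.33), near the shares of all genes. Among these 4 was Cdkn2b, near the limit of detection in NaCl at 2.07, 3.93 and 0.906 (1 read in its lowest library). It averaged 14.4 in DAHB and 16.8 in DAHB+O. Its mean over all libraries reached the filter for testing only through these groups, so the filter favoured its call as higher. Under quantile normalization 4 of the 8 were higher and 4 lower (median 0.07). In DAHB+O against DAHB 1 of the 8 was higher and 5 lower (median -0.51). The antiproliferative gene Btg1 rose in DAHB (0.84), from a mean of 11813 to 21171, and was lower with oligomycin (-0.23). The cyclin-dependent kinase inhibitors differed, since Cdkn1a rose in DAHB (0.72) while Cdkn1b fell (-1.45). Oligomycin lowered Cdkn1a (-0.79), the growth arrest gene Btg2 (-1.196) and the stress-responsive genes Ndrg1 (-1.64) and Ndrg2 (-0.94), and raised Gadd45a (1.57).

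**Figure D4:**
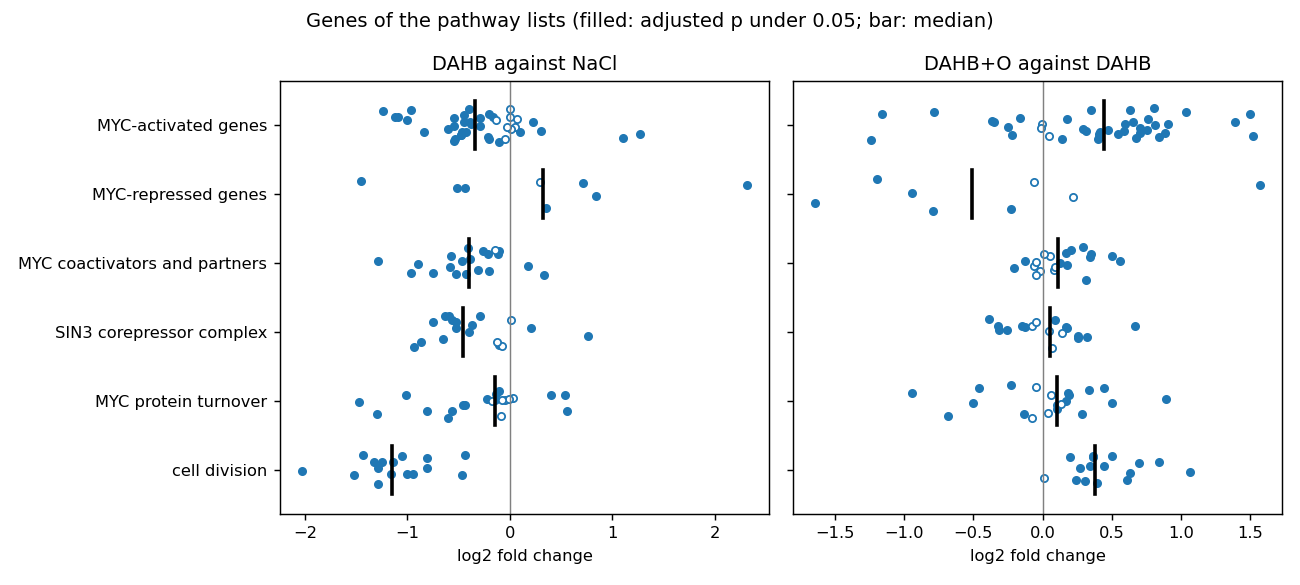
Log2 fold change (horizontal axes) of the genes of 6 lists in DAHB against NaCl and DAHB+O against DAHB, with filled points at an adjusted p under 0.05 and a bar at the median of each list. The medians of genes activated by MYC lie at -0.33 and 0.44, and those of cell division genes at -1.15 and 0.38.

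The cofactors that the network calls on were mostly lower in DAHB. Of 20 coactivators and partners of MYC 17 were lower and 2 higher (median -0.39; 12 and 2 under quantile normalization), including the TIP60 complex genes Brd8 (-1.29), Ruvbl1 (-0.97) and Actl6a (-0.75) and the MYC-binding host cell factor Hcfc1 (-0.90). In DAHB+O against DAHB 10 were higher and 2 lower (median 0.11), led by the WD-repeat cofactor Wdr5 (0.56) and the acetyltransferase Kat2a (0.50), with the SWI/SNF subunit Smarcb1 at 0.34. Of 18 genes of the SIN3 corepressor, through which MXD proteins act, 13 were lower and 2 higher in DAHB (median -0.46; -0.30 under quantile normalization). The scaffold Sin3a fell (-0.65) while Sin3b rose (0.21), the reader subunits Ing1 (-0.75) and Ing2 (-0.93) fell, and the deacetylase Hdac1 rose (0.76). With oligomycin 7 were higher and 6 lower (median 0.06), close to the shares of all genes. There Sin3b (-0.32), Sap18 (-0.32) and Arid4a (-0.39) fell, and the histone chaperone gene Rbbp4 rose (0.32).

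Genes that set the lifetime of the MYC protein passed about as often in DAHB as all genes did (71.4% and 73.9%). Of the 21 measured, 12 were lower and 3 higher in DAHB (median -0.14), counts that were 9 and 5 under quantile normalization (median -0.03), and 10 were higher and 6 lower in DAHB+O against DAHB (median 0.10). The mitotic kinases Plk1 (-1.47) and Aurka (-1.29), which also belong to cell division, and the PP2A inhibitor Set (-0.81) fell in DAHB. Set rose with oligomycin (0.89), as did the deubiquitinase Usp37 (0.50). Of the PIM kinases, which phosphorylate MYC, Pim3 fell with oligomycin by 0.94 and Pim2 by 0.68 on the log2 scale. Pim3 was highest in DAHB, with means of 3554 in NaCl, 5266 in DAHB and 2739 in DAHB+O. Pim1 (6161, 8968 and 7653) and Fbxw7 (1147, 1516 and 1464) also had higher means in DAHB than in NaCl.

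Likeness to Myc was taken over the 9 single libraries, so it counts spread within a group as well as group means. The count for Myc is therefore no measure of how many genes share its group means. Among 11601 genes with a mean of at least 50, 13 reached a Pearson r of 0.95 with Myc on the log2 scale. Closest were the T cell lineage factors Tbx21 (0.987) and Eomes (0.983), the phosphatase gene Dusp2 (0.979), the chaperone gene Hyou1 (0.978) and Rpl7l1 (0.965). For Mxd4, which differed between all 3 groups, 737 genes reached 0.95, with Unc119b (0.999), Zfp52 (0.998), Spata13 (0.997), Ugdh (0.997) and Ccdc134 (0.996) closest. These correlations take in differences between the 3 groups and between libraries of a group, and were given no test.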

How the data were processed

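Poly(A) RNA of 9 libraries was sequenced. The submitters' processing notes name mm10 and, without roles or order, DESeq2, HTSeq 0.9.1, Picard, STAR 2.4 and Trim Galore 0.4.5. The deposited values are a signal, gene counts that were divided by 1 size factor per library. This was read from the values: each column held only whole multiples (100%, tolerance 1e-06 reads) of 1 number, which matched a DESeq2 size factor within 0.00771%. The sources used here give no annotation, strand setting or gene filter. No value is 0 and 1 cell is blank.

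Normalized counts were analysed as log2(value + 1) in 1 limma 3.58.1 fit of all 9 libraries (R 4.3.3), with a variance trend and no block, for the 14169 genes whose mean reached 10. Tests were two-sided, with Benjamini-Hochberg adjustment over all genes and calls at an adjusted p under 0.05. For DAHB against NaCl, DAHB+O against DAHB and DAHB+O against NaCl, limma called 10472, 8866 and 10516 genes. On the recovered reads edgeR 4.0.16 called 10506, 9044 and 10561, and DESeq2 1.42.0 called 10079, 8442 and 10193. The fits were also run on simulated data with few changed genes and no replicate effect. That setting differs from these data, and nothing is drawn from it here. The other alternatives were pseudocounts, filters, scalings, a replicate block and leaving out each library.

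Members and lists were chosen with earlier results of these data known. Named list genes were up to 4 with the smallest p of each list in each of the first 2 comparisons. Dkc1, Nop56, Slc2a1, Ldha and Gadd45a were added after their values were seen. Lengths are unions of GENCODE vM21 exons (mm10). Libraries of a group differed by more than sampling noise (chi-square per gene 2.07 to 12.8), so none was counted as a repeat deposit. Likeness was Pearson's r of log2 values over the 9 libraries.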

Additional observations from a re-analysis of the deposited data

How the results depend on the processing

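All 17 called member changes kept direction and call under each of 19 alternatives: the replicate block, quantile normalization, TMM rescaling, edgeR, DESeq2, pseudocounts of 0.5 and 10, a filter at a mean of 50 or none, a fit of 6 libraries, and each library left out. Of the 7 that did not pass, 5 changed sign. Quantile normalization gave 0.0309 for Mxi1 and 0.116 for Mlx in DAHB against NaCl, 0.0397 for Max in DAHB+O against DAHB and 0.0292 for Mlx in DAHB+O against NaCl; Mlx then passed in the first, as did Myc in DAHB+O against DAHB (0.176). For Mlx in DAHB against NaCl, TMM rescaling gave 0.0106 and edgeR 0.011. For Myc in DAHB+O against DAHB, edgeR gave -0.00191, DESeq2 -0.00344, and leaving out a library -0.0608 to 0.129. The same range for Max was -0.0577 to 0.00743. The causes were not tested. With the longest transcript as length, Myc over the MXD and MNT sum was 1.57 in NaCl, 2.22 in DAHB and 4.3 in DAHB+O, since lengths differ in the divisor. The labels do not say what the replicate numbers stand for. Same-numbered libraries had deviations correlated at 0.0273 to 0.16, and other-numbered pairs at -0.115 to 0.0415. Each library was closest to its own number in 18 of 18 lookups, and the main fit had no block. With the replicate block 10683, 9145 and 10718 genes were called in the 3 comparisons, 7, 4 and 7 of them members, Mxi1 now passing in DAHB against NaCl (adjusted p = 0.017; 0.017 to 0.618 over alternatives). Leaving out a library gave 10012 to 10418, 8154 to 8924 and 10011 to 10692 genes and 6 to 7, 4 to 5 and 7 member calls. Members had at least 374 reads in every library, but some other list genes and markers were near the limit of detection, such as Mlxipl in NaCl (3 reads in its lowest library).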

Other observations

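Within each of the 3 groups, the library numbered 1 held the highest Myc value and the lowest values of Mxd1, Mxd4 and Mxi1. Myc was 12218 there against 11110.2 and 11103 in NaCl, 17208 against 14124 and 13234 in DAHB, and 15558 against 14901 and 14403 in DAHB+O. Mxd1 was 2037 against 2333 and 2192 in NaCl, 3869.8 against 4619.9 and 4853 in DAHB, and 929 against 1013 and 1098 in DAHB+O. Over 14168 genes, 9.27% were highest and 9.63% lowest in the library numbered 1 of every group. The labels do not say what the number stands for, and the pattern was noticed in the data and not tested.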
